A study of Mus musculus with 18 samples.

Results

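Heat and cold change the level of a small set of mRNAs in many cells, and 10 genes of this kind were followed across 18 mouse livers. Cirbp and Rbm3 encode RNA-binding proteins that mild cold induces. Hspa1a, Hspa1b, Hspa8, Hsph1, Hsp90aa1, Hsp90ab1, Dnajb1 and Hspe1 encode chaperones, most of which heat induces. The 10 were chosen by gene symbol from the 19057 lines of the expression table, and all 10 passed the filter on low values (at least 1 RPKM in at least 3 livers), as did 10507 genes in all. RPKM counts reads scaled to the length of the gene and the size of the library, so it can be set side by side between genes.

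Livers came from ICR mice, labelled 10 weeks old, with 3 livers in each of 6 groups. Con had the regular diet and HFD a high-fat diet. AOS and HFD+AOS had the regular and the high-fat diet with alginate oligosaccharide (AOS), at 10 mg/kg by the labels. Con-FMT and A10-FMT mice had the high-fat diet and received gut content from donors given water or AOS, and by the study's methods this content was pooled from many donors, so the 3 recipients of a group share an inoculum. The study's methods describe male mice for 4 of the groups and do not describe AOS and HFD+AOS, which are known here from their labels. The hour at which the livers were taken is not given in the sources used here. The labels name the replicates as separate samples and say no more of how they were drawn, so p values measure the spread between these samples.

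The labelled tissue was checked first. All 8 hepatocyte markers had a median of at least 1 RPKM over the 18 livers, and their summed level was 41790 to 67900 RPKM per liver. The livers did not all look independent. The third Con liver lay between the other Con livers for 99.2% of the 121 genes in which those 2 differed by at least 1 on the log2(RPKM + 1) scale, and the third AOS liver between the other AOS livers for 96.4% of 111 genes, whereas in the other 4 groups the highest such share was 76%. For comparisons that use Con or AOS, the counts of genes past the threshold are therefore given with and without the third livers of those groups. Other comparisons rest on these livers only through the spread shared by all groups, and not every count there is given without them. Because whole liver was measured, fewer cells of a type and less RNA per cell cannot be told apart.

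In the body, HSF1, a transcription factor that binds heat shock elements, switches on chaperone genes when proteins unfold or temperature rises. Cirbp and Rbm3 respond the opposite way, rising with mild cold and falling with warmth. In the liver of mice, whose temperature follows a daily rhythm, both sets are known to cycle across the day, and Cirbp is known to influence how clock mRNAs are processed. Chaperones work in teams. The inducible HSP70 proteins (Hspa1a, Hspa1b) and the constitutive HSC70 (Hspa8) fold clients with a J-domain partner such as Dnajb1 and a nucleotide exchange factor such as Hsph1, and pass some of them on to HSP90 (Hsp90aa1, the more inducible form, and Hsp90ab1, the more constitutive one). Hspe1 is the mitochondrial lid of the chaperonin Hspd1.

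Promoter sequence was available for 6 of the 10 genes, and 5 windows are shown because they hold elements known from heat and cold responses or show how alike Hspa1a and Hspa1b are. They are RefSeq sequences on GRCm38.p6 and give the 250 bases before the annotated start, read 5′ to 3′ along the gene. Capitals mark heat shock element pairs (GAANNTTC or TTCNNGAA) in the chaperones, and in Cirbp the mild-cold element (TCCCCGCC) and the CCAAT box on either strand.
Cirbp (chr10:80167589-80167838, plus strand): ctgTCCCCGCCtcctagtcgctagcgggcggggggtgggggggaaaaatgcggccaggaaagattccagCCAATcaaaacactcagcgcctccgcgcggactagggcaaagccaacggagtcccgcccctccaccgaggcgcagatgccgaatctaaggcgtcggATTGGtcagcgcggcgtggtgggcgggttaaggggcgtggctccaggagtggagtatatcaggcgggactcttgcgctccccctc
Hspa1a (chr17:34972157-34972406, minus strand): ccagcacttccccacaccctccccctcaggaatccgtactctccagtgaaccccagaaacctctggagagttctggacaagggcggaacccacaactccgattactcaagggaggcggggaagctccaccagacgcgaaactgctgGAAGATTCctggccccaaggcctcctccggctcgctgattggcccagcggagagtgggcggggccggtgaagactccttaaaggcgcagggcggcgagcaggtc
Hspa1b (chr17:34959239-34959488, minus strand): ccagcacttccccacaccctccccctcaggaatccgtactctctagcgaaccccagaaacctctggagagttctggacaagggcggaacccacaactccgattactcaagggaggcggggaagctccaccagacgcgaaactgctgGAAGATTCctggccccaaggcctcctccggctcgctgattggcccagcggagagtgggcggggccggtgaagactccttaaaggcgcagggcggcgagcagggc
Hsph1 (chr5:149636337-149636586, minus strand): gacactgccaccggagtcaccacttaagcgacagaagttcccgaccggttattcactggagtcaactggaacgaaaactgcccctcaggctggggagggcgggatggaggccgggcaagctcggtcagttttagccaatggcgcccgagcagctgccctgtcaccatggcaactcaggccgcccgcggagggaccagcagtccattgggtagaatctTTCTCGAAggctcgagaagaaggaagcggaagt
Hspe1 (chr1:55087898-55088147, plus strand): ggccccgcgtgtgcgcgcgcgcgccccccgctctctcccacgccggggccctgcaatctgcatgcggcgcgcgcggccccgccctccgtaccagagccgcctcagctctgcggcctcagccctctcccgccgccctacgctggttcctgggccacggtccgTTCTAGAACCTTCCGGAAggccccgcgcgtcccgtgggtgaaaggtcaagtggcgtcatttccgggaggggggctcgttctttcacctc
A heat shock element pair stood in 15.1% of the 32851 promoter windows of the reference (250 bases before and 50 after the start), both strands searched. Hspe1 held 3 overlapping pairs, which form 2 overlapping runs of 3 alternating units, a longer element present in 0.603% of windows. Hsph1 also held 3 pairs, of which 1 stands before the start and 2 after it as a single run of 3 units. Hspa1a and Hspa1b held 1 pair each at the same distance from the start, and their upstream stretches were identical at 247 of 250 positions. The windows of Dnajb1 and Cirbp held no pair of exactly these letters. The first Cirbp window held 2 CCAAT boxes (in 37.4% of all windows) and 1 mild-cold element (in 5.38%), and the same mild-cold letters also stood in the windows of Hspa1a, Hspa1b and, in a window at a second start, Dnajb1. A clock E-box (CACGTG, in 7.15% of windows) was found in the Hsph1 windows only, and the TATA letters TATAAA (in 13.6%) in none of the 9 windows. The match of letters is a description and shows no binding.

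On GRCm38 the GENCODE annotation places Cirbp at chr10:80165985-80172786, Rbm3 at chrX:8138975-8145880, Hspa1a at chr17:34969190-34972156, Hspa1b at chr17:34956436-34959238 and Hspa8 at chr9:40800984-40810087. It places Hsph1 at chr5:149614287-149636376, Hsp90aa1 at chr12:110690605-110702728, Hsp90ab1 at chr17:45567775-45573271, Dnajb1 at chr8:83608193-83612653 and Hspe1 at chr1:55088132-55091307. The Cirbp window shown above lies inside this GENCODE span, as do the last bases of the Hsph1 and Hspe1 windows, since the annotated starts differ. Several of these genes have near-copies. Of the 35-base words in the longest Hspa1a transcript, 62.6% also occur in Hspa1b, and of those of Hspa1b 66.3% occur in Hspa1a, so how reads were divided between the pair is uncertain. Shared words reached 61.8% for Hsp90aa1 and 57.7% for Hspa8, mostly with predicted genes, were 15.7% for Rbm3, 12.3% for Hspe1, 11.7% for Hsp90ab1 and 0.441% for Dnajb1, and were absent for Cirbp and Hsph1. In the 18 livers Hspa1b stood at 2.30 to 3.51 times the RPKM of Hspa1a.

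**Figure D1:**
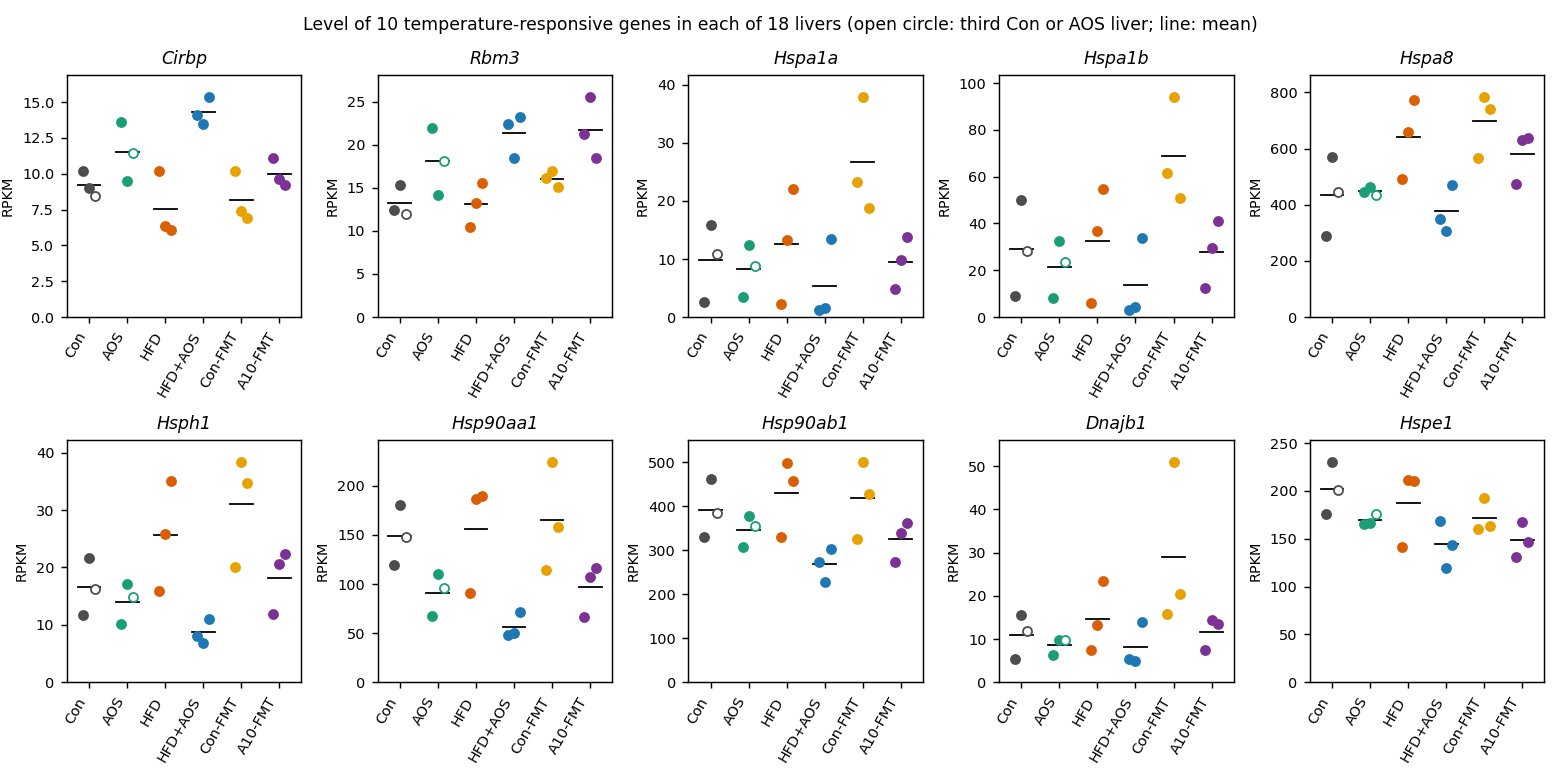
RPKM (linear axis from 0) of the 10 genes in each liver by group, 1 point per liver and a line at the mean of 3, with open circles for the third Con and AOS livers. HFD+AOS has the highest Cirbp mean (14.3 RPKM) and the lowest mean of all 8 chaperones, while points within a group spread widely for Hspa1a, Hspa1b and Dnajb1.

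Abundance differed widely among the chaperones. Hspa8 and Hsp90ab1 were the most abundant, with medians over the 18 livers of 484 and 346 RPKM, followed by Hspe1 (167 RPKM) and Hsp90aa1 (112 RPKM). Hspa1b, Hsph1, Dnajb1 and Hspa1a had medians of 31.1, 16.7, 12.5 and 11.7 RPKM. The cold-induced genes were at the low end of this scale, with medians of 16.5 RPKM for Rbm3 and 9.89 RPKM for Cirbp. The least abundant chaperones were also the most variable. From the lowest to the highest liver Hspa1a spanned 32.5-fold and Hspa1b 30.8-fold, Dnajb1 10.2-fold and Hsph1 5.57-fold, whereas Hspe1 spanned 1.93-fold and Rbm3 2.44-fold.

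HFD+AOS livers held the lowest mean of all 8 chaperones and the highest of Cirbp. Con-FMT livers held the highest mean of 6 chaperones (Hspa1a, Hspa1b, Hspa8, Hsph1, Hsp90aa1 and Dnajb1), HFD that of Hsp90ab1 and Con that of Hspe1. For the cold-induced pair HFD was at the bottom. Its mean ± SD (n = 3) was 7.52 ± 2.29 RPKM for Cirbp and 13.1 ± 2.51 RPKM for Rbm3. The top was HFD+AOS for Cirbp (14.3 ± 0.968 RPKM) and A10-FMT for Rbm3 (21.8 ± 3.61 RPKM). For Rbm3, Con was almost as low (13.25 ± 1.78 RPKM) and HFD+AOS almost as high (21.4 ± 2.51 RPKM). The ratio of the highest to the lowest group mean was 4.99 for Hspa1b, 4.92 for Hspa1a, 3.57 for Dnajb1 and Hsph1, 2.95 for Hsp90aa1 and at most 1.90 for the other 5 genes. Groups next to each other in these orders overlapped in their livers, except for Hspa8 between A10-FMT and AOS and Hsp90aa1 between Con and A10-FMT. The orders come from these same values, and the share of all genes apart between such neighbours was not computed. The exceptions are therefore a description only. Tested across the 6 groups, 5 of the 10 genes passed an adjusted p of 0.05 (Cirbp, Rbm3, Hsph1, Hsp90aa1 and Hspa8), against 14.8% of all genes. Without the third Con and AOS livers 0 of the 10 passed (limma, 523 of 10507 genes passed, and 2373 had an unadjusted p under 0.05), without the first HFD+AOS liver 2 passed (9.72% of all genes), without the second 3 (12.2%) and without the first HFD liver 7 (17.5%).

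The question of what AOS did on the high-fat diet gave the most genes past the threshold of the pairwise comparisons. In HFD+AOS livers both cold-induced genes were higher than in HFD livers and 4 chaperones were lower. These were Hsph1, Hsp90aa1, Hsp90ab1 and Hspa8. The 2 higher are set against 4.17% of all genes called higher, the 4 lower against 4.58% called lower, and the 6 together against 8.75%. The livers of the groups did not overlap for these 6 genes, as for 27.2% of all genes.

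Cirbp stood at 10.2, 6.35 and 6.06 RPKM in the HFD livers (replicates 1, 2 and 3, an order kept throughout) and at 14.1, 13.5 and 15.4 RPKM in the HFD+AOS livers. Every HFD+AOS liver was above every HFD liver, and the first HFD liver was the nearest of the 3. As a difference of log2(RPKM + 1), in which low genes look less changed than they are, this came to 0.88 (standard error 0.17, adjusted p = 0.00562). Rbm3 was measured at 10.5, 13.2 and 15.5 RPKM in HFD and 22.4, 18.5 and 23.2 RPKM in HFD+AOS, again without overlap, a difference of 0.68 (standard error 0.16, adjusted p = 0.0182) on the same scale.

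Of the HSP90 pair, Hsp90aa1 read 91.1, 187 and 189.8 RPKM in HFD and 47.8, 49.9 and 71.2 RPKM in HFD+AOS livers. The first HFD liver lay well under the other HFD livers, yet above all HFD+AOS livers. The difference was -1.40 (standard error 0.31, adjusted p = 0.0133) on the log2(RPKM + 1) scale. Hsp90ab1, the constitutive form, went from 331, 498 and 458 RPKM to 272, 227 and 303 RPKM, with a smaller difference of -0.67 (standard error 0.18, adjusted p = 0.0364).

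Hsph1, the exchange factor of HSP70, stood at 15.9, 25.9 and 35 RPKM in HFD and 8.08, 6.89 and 11.1 RPKM in HFD+AOS, a difference of -1.41 (standard error 0.32, adjusted p = 0.0142). Hspa8, the constitutive HSP70, stood at 492, 659 and 774 RPKM and 350.0, 307 and 470.1 RPKM, a difference of -0.77 (standard error 0.23, adjusted p = 0.048). For Hspa8 the lowest HFD liver was only just above the highest HFD+AOS liver.

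The strongly inducible genes had the same sign of difference but did not pass the test. Hspa1b was at 6.21, 36.6 and 54.7 RPKM in HFD and 3.06, 4.48 and 33.8 RPKM in HFD+AOS. Each group thus held livers at opposite ends, the first HFD liver being low and the third HFD+AOS liver high, and the difference was -1.43 (standard error 0.85, adjusted p = 0.306). The values were -1.24 (standard error 0.78, adjusted p = 0.335) for Hspa1a, -0.78 (standard error 0.48, adjusted p = 0.32) for Dnajb1 and -0.37 (standard error 0.16, adjusted p = 0.158) for Hspe1.

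Cirbp passed the threshold in all 12 alternatives and left-out livers tried, Rbm3 in 10, Hsph1 and Hsp90aa1 in 9 and Hspa8 and Hsp90ab1 in 5. Without the third Con and AOS livers, which enter this fit only through the shared spread, 4 of the 10 and 4.72% of all genes passed, and Hspa8 (adjusted p = 0.0842) and Hsp90ab1 (adjusted p = 0.0696) did not. With 1 liver left out, 1 gene passed without the first HFD+AOS liver (Cirbp, against 3.06% of all genes), 2 without the third HFD liver (3.05%), 3 without the second HFD liver (4.19%) or the second HFD+AOS liver (5.12%), 5 without the third HFD+AOS liver (5.88%) and 7 without the first HFD liver (12.2%), where Hspe1 was added (adjusted p = 0.0248).

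**Figure D2:**
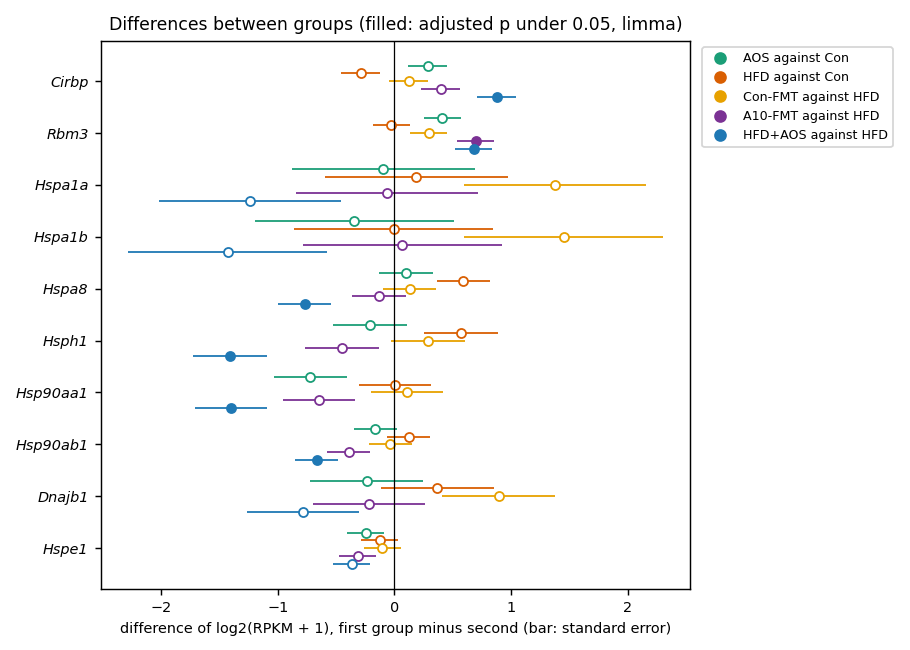
Difference of log2(RPKM + 1) between groups for the 10 genes in 5 comparisons, first group minus second, with bars of 1 standard error and filled points for an adjusted p under 0.05. Filled points are 6 in HFD+AOS against HFD and 1 (Rbm3) in A10-FMT against HFD, and the bars of Hspa1a and Hspa1b are the widest.

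The partners of these chaperones were read from 4 lists of 58 other genes, 55 of them above the filter. In HFD+AOS against HFD, 16 of the 55 were lower (29.1%, with 4.58% of all genes lower). None were higher (4.17% of all genes) and 39 did not pass. The median difference was -0.25 on the log2(RPKM + 1) scale, against -0.01 over all genes. Among HSP90 relatives and co-chaperones 8 of 19 were lower, including Stip1, which links HSP70 to HSP90, at -0.74 (standard error 0.19, adjusted p = 0.0257), the prolyl isomerase Ppid at -0.48 (standard error 0.12, adjusted p = 0.0241) and Chordc1 at -0.71 (standard error 0.19, adjusted p = 0.0295). Among small heat shock proteins and chaperonins 2 of 13 were lower. The small heat shock protein Hspb1 had the largest of these differences, at -1.74 (standard error 0.32, adjusted p = 0.00477), with 30.9, 62.2 and 61.8 RPKM in HFD and 12.3, 12.1 and 18.6 RPKM in HFD+AOS. Hspd1, with which Hspe1 forms the mitochondrial chaperonin, stood at -0.33 (standard error 0.13, adjusted p = 0.135) and did not pass.

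Chaperones of the endoplasmic reticulum were among the lower genes as well, in a comparison where 4.58% of all genes were lower. Among 7 HSP70 and HSP110 relatives 3 were lower. They were the reticulum's main HSP70 Hspa5 at -1.01 (standard error 0.25, adjusted p = 0.0242), Hspa13 at -0.55 (standard error 0.14, adjusted p = 0.0286) and, outside the reticulum, Hspa4l at -0.74 (standard error 0.18, adjusted p = 0.0236). The reticulum's Hsp90b1, already counted among the HSP90 relatives, stood at -0.70 (standard error 0.19, adjusted p = 0.0313). Of 16 J-domain partners 3 were lower, Dnajb9, Dnajb11 and Dnajc3, all of which work in the reticulum. Of 4 genes for heat shock factors and a protein that binds them, only Hsf4 passed, higher by 0.37 (standard error 0.08, adjusted p = 0.012). Hsf1 stood at -0.21 (standard error 0.08, adjusted p = 0.104). Of a list of 18 genes, mostly other RNA binders and splicing kinases, 3 were lower. The splicing regulators Tra2b at -0.58 (standard error 0.15, adjusted p = 0.0243) and Tra2a at -0.63 (standard error 0.18, adjusted p = 0.0403) were among them. From the same list 1, Hnrnpd, was higher at 0.25 (standard error 0.07, adjusted p = 0.0384). None of 9 immediate early genes passed in this or any other comparison (limma).
The count of 16 lower chaperone-list genes depended on the livers used. It was 3 without the third Con and AOS livers. It was 1 without the second or the third HFD liver or the first or second HFD+AOS liver. It was 7 without the third HFD+AOS liver and 22 without the first HFD liver. In each case 0 chaperone-list genes were higher.

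Clock genes moved in the same comparison. Arntl (Bmal1), the activator at the centre of the clock, stood at 12.1, 14.6 and 13.2 RPKM in HFD and 1.18, 1.23 and 1.32 RPKM in HFD+AOS, a difference of -2.67 (standard error 0.22, adjusted p = 6.38e-06). The repressor Per2 stood at 2.71, 2.22 and 3.56 RPKM and 5.62, 4.92 and 6.21 RPKM, with a difference of 0.79 (standard error 0.31, adjusted p = 0.119) that did not pass. Nr1d1 (Rev-erb alpha), which represses Arntl, stood at 21.7, 7.35 and 2.12 RPKM and 70.1, 56.8 and 54.4 RPKM, with 2.86 (standard error 0.62, adjusted p = 0.0117). No liver of the groups overlapped for any of the 3, as for 27.2% of all genes. Of the genes that share the phase of Arntl, Arntl among them, 5 of 6 were lower (4.58% of all genes). Of the clock repressors and outputs, Per2 and Nr1d1 among them, 10 of 12 were higher (4.17%). The part of the clock difference in that of the chaperones and of Cirbp and Rbm3 was not tested. Of 10 lists of cell type markers, 0 had summed levels that did not overlap between HFD+AOS and HFD livers.

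**Figure D3:**
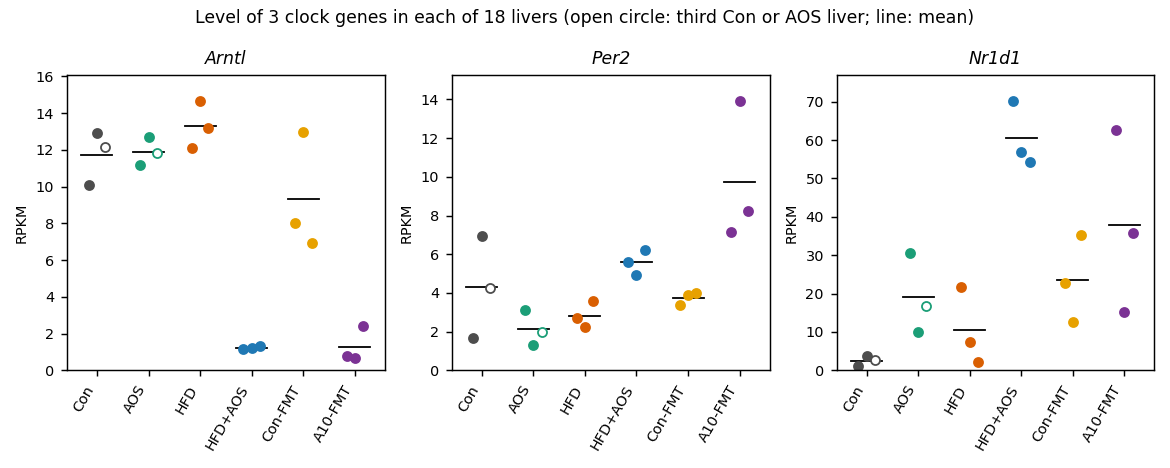
RPKM (linear axis from 0) of Arntl, Per2 and Nr1d1 in each liver by group, 1 point per liver and a line at the mean of 3, with open circles for the third Con and AOS livers. Arntl lies between 0.69 and 2.41 RPKM in HFD+AOS and A10-FMT livers and at 6.94 RPKM or more in the other 4 groups.

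A10-FMT was set against HFD to ask what gut content of AOS-dosed donors did on the same diet. Rbm3 alone of the 10 genes passed, and it was higher. It stood at 21.2, 25.6 and 18.4 RPKM in A10-FMT livers, each above the highest HFD liver (15.5 RPKM), a difference of 0.70 (standard error 0.16, adjusted p = 0.0176). That is 1 of 10 genes where 6.6% of all genes passed (2.62% higher) and 23.4% had livers that did not overlap, as did Rbm3 alone here. Rbm3 kept its call in 8 of 12 alternatives, and lost it with only these groups fitted (adjusted p = 0.112) and without the second HFD liver (0.0513) or the first (0.0547) or second (0.0945) A10-FMT liver.

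Cirbp stood at 11.1, 9.62 and 9.22 RPKM in A10-FMT, overlapping the first HFD liver only, with a difference of 0.39 (standard error 0.17, adjusted p = 0.161). Hsp90aa1 stood at 66.5, 107 and 116 RPKM, with -0.65 (standard error 0.31, adjusted p = 0.209), and Hsp90ab1 had -0.39 (standard error 0.18, adjusted p = 0.205). Without the first HFD liver 4 of the 10 and 10.2% of all genes passed, with Cirbp (adjusted p = 0.0231), Hsp90aa1 (0.0447) and Hspe1 (0.0396) added to Rbm3. The inducible Hspa1b stood at 12.6, 29.4 and 41.2 RPKM, within the range of the HFD livers. Of the 55 chaperone-list genes 4 were lower (7.27%, with 3.98% of all genes lower) and 0 higher. The count was 0 lower without the third Con and AOS livers, without the second or the third HFD liver or without the first or second A10-FMT liver, and 9 lower and 1 higher without the third A10-FMT liver, 6 lower without the first HFD liver. The 4 were the reticulum chaperones Hspa13, Dnajb11 and Hsp90b1 and the chaperonin subunit Cct3.

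Arntl stood at 0.79, 0.69 and 2.41 RPKM in these livers, against HFD a difference of -2.71 (standard error 0.22, adjusted p = 6.57e-06). Of the clock genes, 5 of 6 in the phase of Arntl, Arntl among them, were lower (3.98% of all genes). Of the repressors and outputs 11 of 12 were higher (2.62%). HFD+AOS and A10-FMT livers both had low Arntl. Against HFD, 6 of the 10 temperature-responsive genes passed for HFD+AOS (8.75% of all genes) and 1 for A10-FMT (6.6%). How these counts relate to the clock was not tested. Both comparisons, and Con-FMT against HFD, use the same 3 HFD livers. Of the marker lists 0 were apart between A10-FMT and HFD. Summed fat markers nevertheless went from 0 to 5.4 RPKM in A10-FMT livers and from 0 to 0.06 RPKM in HFD livers. In the remaining groups they reached at most 0.18 RPKM, in HFD+AOS. The part of fat markers in the differences was not tested.

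HFD+AOS and A10-FMT livers were set side by side in a comparison added after the values were seen. None of the 10 genes passed and 0% of all genes did (limma), with 4 of the 10 and 779 of the 10507 at an unadjusted p under 0.05. The groups did not overlap for 3 of the 10, as for 10.3% of all genes. These were Cirbp, 13.5 to 15.4 RPKM in HFD+AOS and 9.22 to 11.1 RPKM in A10-FMT, Hsph1, 6.89 to 11.1 and 11.8 to 22.3 RPKM, and Hspa8, 307 to 470.1 and 475 to 637 RPKM. Their differences were 0.48 (standard error 0.17, adjusted p = 0.539), -0.97 (standard error 0.32, adjusted p = 0.503) and -0.64 (standard error 0.23, adjusted p = 0.56). Beside these values, the summed hepatocyte markers were 59580 to 67900 RPKM in HFD+AOS and 53740 to 58000 RPKM in A10-FMT, and 6 macrophage markers summed to 64.0 to 71.5 RPKM and 45.8 to 55.6 RPKM. Their part in the differences was not tested.

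The A10-FMT and Con-FMT groups differ by design in the donors' treatment. None of the 10 genes passed, against 1.68% of all genes, and 4 of the 10 had an unadjusted p under 0.05, as did 16.4% of all genes (limma). Without the third Con and AOS livers 0 of the 10 and 0.78% of all genes passed. The livers did not overlap for 4 of the 10, as for 18.3% of all genes. Hspa1b stood at 61.5, 94.2 and 50.9 RPKM in Con-FMT, and all 3 of these livers were above the 3 of A10-FMT, with a difference of -1.38 (standard error 0.85, adjusted p = 0.445). Hspa1a (4.84 to 13.8 RPKM in A10-FMT and 18.7 to 38 RPKM in Con-FMT) and Dnajb1 (7.39 to 14.4 and 15.8 to 51 RPKM) were likewise apart.
Rbm3 was apart in the other direction, with 16.1, 17 and 15.1 RPKM in Con-FMT and a difference of 0.40 (standard error 0.16, adjusted p = 0.219). Hsp90aa1 had 114, 224 and 158 RPKM in Con-FMT, overlapping A10-FMT, and -0.76 (standard error 0.31, adjusted p = 0.233). The summed hepatocyte markers were 63640 to 64970 RPKM in Con-FMT, above the A10-FMT range already given.

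Con-FMT against HFD, which sets control donors' content against none, gave 0 of the 10 genes, with 0.00952% of all genes called and 0 of the 10 and 6.63% of all genes at an unadjusted p under 0.05 (limma). None of the 10 had livers that did not overlap, where 10.1% of all genes did. Summed markers of sinusoidal endothelium were 43.5 to 46.1 RPKM in Con-FMT and 38.4 to 39.96 RPKM in HFD, and were the only 1 of 10 marker lists apart. The differences of Hspa1b, 1.45 (standard error 0.85, adjusted p = 0.792), Hspa1a, 1.38 (standard error 0.78, adjusted p = 0.79), and Dnajb1, 0.89 (standard error 0.48, adjusted p = 0.77), were the largest, with standard errors to match. The second Con-FMT liver was the highest of all 18 for Hspa1a, Hspa1b, Dnajb1, Hsph1, Hsp90aa1, Hsp90ab1 and Hspa8.

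The diet itself, HFD against Con, moved none of the 10 past the threshold, where 0.381% of all genes passed, and 1 of the 10 had an unadjusted p under 0.05, as did 15.4% of all genes (limma). The groups overlapped for all 10, while 18.5% of all genes did not overlap. Hspa8 stood at 288, 571 and 446 RPKM in Con, with a difference of 0.59 (standard error 0.23, adjusted p = 0.233). Cirbp was at 10.2, 9.02 and 8.41 RPKM in Con, with -0.29 (standard error 0.17, adjusted p = 0.419), and Hsph1 at 11.8, 21.6 and 16.3 RPKM, with 0.57 (standard error 0.32, adjusted p = 0.403). If the third Con liver was left out, 0 of the 10 passed as well, and 0 of all genes did. Summed stellate cell markers were 69.1 to 80.1 RPKM in Con and 82.4 to 97.8 RPKM in HFD, and were the only 1 of 10 marker lists apart.

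AOS on the regular diet also moved none of the 10 past the threshold, with 0.133% of all genes called and 2 of the 10, near the 15.5% of all genes, at an unadjusted p under 0.05 (limma). Hsp90aa1 was the 1 gene whose livers did not overlap, as for 24.7% of all genes, with 119, 181 and 148 RPKM in Con and 67.1, 109.8 and 95.6 RPKM in AOS. Its difference was -0.72 (standard error 0.31, adjusted p = 0.278). Rbm3 stood at 12.4, 15.3 and 12 RPKM in Con and at 22, 14.2 and 18.1 RPKM in AOS, with 0.41 (standard error 0.16, adjusted p = 0.238), and Cirbp at 13.6, 9.51 and 11.4 RPKM in AOS, with 0.29 (standard error 0.17, adjusted p = 0.429). When the third liver of each group was left out, 0 of the 10 and 0 of all genes passed.

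That 6 genes passed on the high-fat diet and 0 on the regular diet does not show that AOS acted differently on them, so the difference between these effects was tested. It passed for 0 of the 10 genes, against 0.504% of all genes, with 3 of the 10 and 14.7% of all genes at an unadjusted p under 0.05 (limma). The 3 were Hsph1 at -1.20 (standard error 0.45, adjusted p = 0.235), Hspa8 at -0.87 (standard error 0.32, adjusted p = 0.235) and Cirbp at 0.59 (standard error 0.24, adjusted p = 0.267), each as the effect on the high-fat diet minus that on the regular diet. Without the third Con and AOS livers 0 of the 10 passed, against 0.143% of all genes, with the same 3 genes at differences of -1.16, -0.93 and 0.65.

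Within a group the chaperones were often all low in the same liver. In Con, HFD and A10-FMT the first liver was the lowest of the 3 for all 8 chaperones and the highest for Cirbp. The first AOS liver was lowest for 7 of 8 and the first Con-FMT liver for 6 of 8, and both were highest for Cirbp. HFD+AOS went otherwise, since the third liver there was highest for 7 of 8 chaperones and also for Cirbp and Rbm3. Replicate numbers carry no order by the labels, and what set these livers apart was not tested.

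The chaperones varied together among livers of a group. Values were centred in their groups on the log2(RPKM + 1) scale, over the 16 livers other than the third of Con and the third of AOS. All 28 pairs of chaperones then had a positive Pearson r, from 0.581 to 0.997 with a median of 0.854. The highest was that of Hspa1a with Hspa1b, between which the division of reads is uncertain. The share of positive r among all pairs of genes was not computed. Cirbp had a negative r with all 8 chaperones, from -0.805 to -0.544. Rbm3 had an r of -0.03 with Cirbp and positive values with all 8 chaperones, from 0.227 to 0.650. These are descriptions over livers in which both genes come from the same library, with no test.

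Over the same 16 livers without centring, Cirbp and Hsp90aa1 had a Pearson r of -0.90 and a Spearman rho of -0.88, and r was -0.92 over 14 livers without the 2 that lie farthest from the median of Cirbp. For Cirbp and Hspa1b r was -0.66 and rho -0.68, and r was -0.79 without those 2 livers. For Rbm3 the signs differed from those within groups. With Cirbp the uncentred r was 0.52 and rho 0.55, and with Hsp90aa1 they were -0.50 and -0.54. Over 14 livers without the 2 farthest from the median of Rbm3, r was 0.72 with Cirbp and -0.72 with Hsp90aa1. With the 8 chaperones the r of Rbm3 over the 16 livers went from -0.496 to -0.052. The ratio of Hsp90aa1 to Cirbp in RPKM went from 3.39 to 31.3 over the 18 livers, with a median of 11.4.

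**Figure D4:**
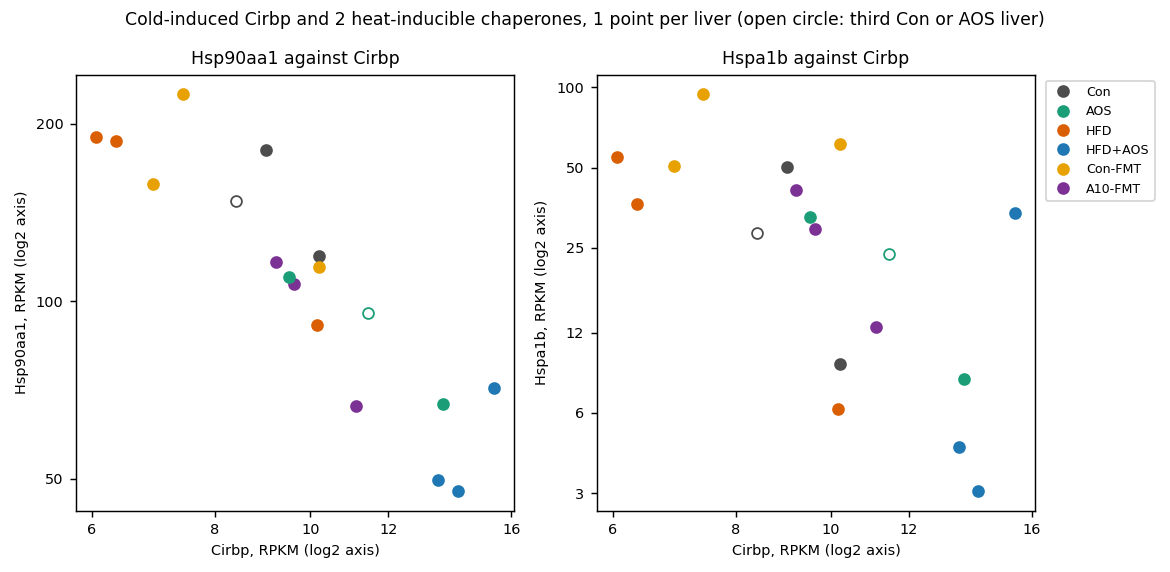
Hsp90aa1 and Hspa1b against Cirbp in RPKM on log2 axes, 1 point per liver coloured by group, with open circles for the third Con and AOS livers. Hsp90aa1 falls from the HFD and Con-FMT livers on the left to the HFD+AOS livers on the right (r = -0.90 over the 16 livers of the filled points), and for Hspa1b 1 HFD+AOS liver at 33.8 RPKM lies far above the other two of its group.

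Beside the clock, r was taken within groups, because Arntl splits the livers into groups of low and high values and a pooled r would carry that split. The 8 chaperones had r from 0.294 to 0.576 with Arntl and from -0.641 to -0.297 with Nr1d1. Cirbp had -0.32 with Arntl and 0.59 with Nr1d1, the opposite signs. Rbm3 had -0.16 with Arntl and -0.25 with Nr1d1, and 0.69 with Per2, with which Cirbp had -0.05. The 8 chaperones also had positive r with Per2, from 0.263 to 0.697, the highest being that of Hspa8.

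The genes most like 3 of the members over the 16 livers were sought among all genes tested, by Pearson r. For Hsp90aa1 they were Hspb1 (0.96), Hsp90ab1 (0.96), Ahsa2 (0.95), Stip1 (0.94) and Dynll1 (0.94). For Hspa1b they were Hspa1a (0.99), Ccdc117 (0.91), Dnajb1 (0.90), Cacybp (0.90) and Slc5a3 (0.89), the first of which shares most of its 35-base words with it. For Cirbp the values were lower, with Phka2 (0.88), Zfp777 (0.84), Izumo4 (0.83), Hectd3 (0.83) and 1810010H24Rik (0.82), and Rbm3 was not among them. Centred in groups, the r of these genes with Cirbp was 0.456 to 0.776, with Hspa1b 0.849 to 0.997 and with Hsp90aa1 0.889 to 0.942.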

How the data were processed

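Liver RNA-seq of 18 mice was used, grouped by the labels of the samples. Per the study's methods, the authors mapped reads to reference genes with SOAPaligner, all hits of a read being reported, and deposited RPKM values, rounded to 2 decimals, while the submitters' processing notes list Bowtie 0.12.2 and mm10. Annotation and strandedness are not given in the sources used here. RPKM sums were 692303 to 806937 per liver, and the read depth is unknown, so the precision of low values cannot be given. DEGseq, named in the methods, needs counts and was not run.

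Genes with at least 1 RPKM in at least 3 livers were kept (10507 of 17109 above 0). A mean for each of the 6 groups was fitted to log2(RPKM + 1) over 18 livers with lmFit and a trended eBayes (R 4.3.3, limma 3.58.1), with p values adjusted after Benjamini and Hochberg over all genes in each comparison and a threshold of 0.05. The fit was tested on simulated data. Correlations were computed with numpy 2.4.6 in Python 3.11.15.

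The 10 members, the gene lists and the tests were chosen with earlier results of these data known. Named genes are the members, up to 3 genes per list and comparison that passed the threshold, taken by their unadjusted p, fixed clock genes, Hspd1 and Hsf1, and the 5 genes most like Cirbp, Hspa1b and Hsp90aa1. Genes listed beyond these were chosen after their values were seen. Alternatives were equal library medians, log2(RPKM + 0.1), no filter, only the groups compared, a replicate block, and livers left out.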

Additional observations from a re-analysis of the deposited data

How the results depend on the processing

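The 10 genes were tested in 8 comparisons, 80 results in all, of which 7 passed. No alternative turned the sign of the 7, and 22 of the 73 others changed sign in at least 1 alternative. Over all genes, same-numbered livers correlated at -0.177 to 0.225 and no comparison had every r over 0.1, so the numbers were not taken as pairs, although the first liver was low for most chaperones in 5 groups. In HFD+AOS against A10-FMT all 6 livers correlated best with their own number, and in the other comparisons 0 to 4 of 6. With the number as a replicate block, 2 members passed in A10-FMT against HFD (6.7% of all genes) and 6 in HFD+AOS against HFD (8.44%). In the same fit 1 passed in A10-FMT against Con-FMT (Hsp90aa1, with 1.6% of all genes) and 8 across the groups (13.7%). With only the groups compared 0 passed in A10-FMT against HFD (0.742% of all genes). Without the third Con and AOS livers 0 passed across the groups (4.98%). With 1 liver left out the counts ranged from 0 to 4 in A10-FMT against HFD, where 2.58% to 11.6% of all genes passed. They ranged from 1 to 7 in HFD+AOS against HFD (3.05% to 12.2%) and from 2 to 7 across the groups (8.54% to 17.6%).

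In HFD+AOS against HFD 16 chaperone-list genes were lower. They numbered 6 without the filter, where 639 genes were called in all. They numbered 3 without the third Con and AOS livers (4.72% of all genes called in either direction) and 10 with only the groups compared (4.14%). With 1 liver left out they numbered 1 to 22 (3.05% to 12.2%). In A10-FMT against HFD they numbered 1 (521 genes called), 0 (3.76%), 0 (0.742%) and 0 to 9 (2.58% to 11.6%), against 4 (6.6%). The alternatives for the chaperone-list genes were chosen after seeing the data. The median r of the 8 chaperones with Nr1d1 was -0.41 over 16 livers without centring, -0.39 over all 18 and -0.53 centred in groups. With library medians equal, 603 of 1070 genes called in A10-FMT against HFD were higher, against 275 of 693, and 659 of 1287 in HFD+AOS against HFD, against 438 of 919, with 1 and 6 members called under both. Without the third Con and AOS livers those totals were 395 and 496. The cause of these changes was not tested. Read depth could not be used to weigh low values.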
